A study of Mus musculus with 3 samples.

Results

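The SIRP and PILR receptors and CD47, the ligand of SIRP-alpha, were followed across the immune cells of the mouse kidney through 8 genes. These were Sirpa, Sirpb1a, Sirpb1b, Sirpb1c, Cd47, Pilra, Pilrb1 and Pilrb2, all of which have a column in the table of 32886 genes. They were chosen by name with results of these data known, namely the comparison of medulla with cortex in resident macrophages, so their values in that comparison are given as a description without a test. The cells were CD45-sorted immune cells from the cortex and from both parts of the medulla, outer (OM) and inner (IM), dissected from kidneys of untouched wild-type mice, which the study describes as healthy male C57BL/6J animals. Datasets from Aachen, Bonn and Hamburg each held all of these compartments, and the cells of 1 compartment in 1 dataset were treated as 1 library, giving 9 libraries and n = 3 datasets. The Hamburg cells of all compartments carry the same barcode suffix, whereas each Bonn compartment has its own and each Aachen compartment has 2, so the table does not show whether the Hamburg compartments were separate sequencing libraries. The sources do not say how many mice each library pooled. With the dataset as block, p-values measure how far compartment differences varied between datasets, and not between mice.

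SIRP-alpha, encoded by Sirpa, is an inhibitory receptor of myeloid cells. It binds CD47, a protein on nearly every cell, and the phosphorylated tyrosines of its cytoplasmic tail recruit the phosphatases SHP-1 and SHP-2, which restrains phagocytosis. The SIRP-beta receptors have a similar outer part but a short tail, and signal through the adapter DAP12, encoded by Tyrobp. PILR-alpha and PILR-beta form a second pair of the same kind, with an inhibitory receptor that carries tyrosine motifs and activating relatives that use DAP12.

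The split into inhibitory and activating receptors can be read from the coding sequences of the reference annotation (GENCODE, GRCm38). The membrane span was estimated as the most hydrophobic stretch of 20 codons away from the start of the coding sequence. Sirpa (chr2:129592835-129632228, plus strand) has 513 codons, 120 of them after the membrane span, and 4 tyrosine motifs in that tail. Pilra (chr5:137821952-137836281, minus strand) has 302 codons and 2 such motifs in a tail of 86 codons. The motif searched was a serine, isoleucine, leucine, valine or threonine codon, any codon, a tyrosine codon, any 2 codons and an isoleucine, leucine or valine codon. The stretches that hold the motifs are shown because they mark the inhibitory members, with the motif codons in capitals:
Sirpa motif 1: aacgacATCACATACGCAGACCTGaatctg
Sirpa motif 2: aaccacACAGAATATGCAAGCATTgagaca
Sirpa motif 3: gataccCTCACCTATGCTGACCTGgacatg
Sirpa motif 4: tctttcTCAGAGTATGCTAGTGTCcaggtc
Pilra motif 1: aataacATCGTGTATGCTTCCATCtccctc
Pilra motif 2: gaagagACTGTGTACTCCATCGTAaaggcc

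The activating members end shortly after the membrane span. Sirpb1a (chr3:15371653-15426520), Sirpb1b (chr3:15495751-15575065) and Sirpb1c (chr3:15795145-15848528), all on the minus strand, have 397 codons each, with 8 after the span and 0 tyrosine motifs. Each has 2 lysine codons in the span or just before it. Pilrb1 (chr5:137852147-137858106) and Pilrb2 (chr5:137865827-137871815), on the minus strand beside Pilra, have 225 codons each, with 10 after the span, 0 motifs and 1 lysine codon in the span. A basic residue in the span is how receptors of this type hold DAP12. The last 90 coding bases before the stop codon are shown because they carry the span and tail, with the bases that differ within each set in capitals:
Sirpb1a: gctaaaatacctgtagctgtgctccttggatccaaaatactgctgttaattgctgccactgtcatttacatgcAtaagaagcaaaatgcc
Sirpb1b: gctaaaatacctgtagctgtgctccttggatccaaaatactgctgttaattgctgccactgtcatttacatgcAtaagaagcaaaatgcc
Sirpb1c: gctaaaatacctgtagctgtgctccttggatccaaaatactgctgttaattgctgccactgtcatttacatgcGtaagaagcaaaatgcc
Pilrb1: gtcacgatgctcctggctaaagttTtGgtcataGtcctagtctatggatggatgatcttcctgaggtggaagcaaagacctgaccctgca
Pilrb2: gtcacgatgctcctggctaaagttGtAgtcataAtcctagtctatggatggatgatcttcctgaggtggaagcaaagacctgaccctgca

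This likeness limits what the counts can separate. The coding sequences of Sirpb1a and Sirpb1b were 97.48% identical, those of Sirpb1b and Sirpb1c 98.32%, and those of Pilrb1 and Pilrb2 93.48%. Of the 90-base stretches in the last 500 transcript bases, the region a 3′ library reads, 41.2% of Sirpb1a, 55.9% of Sirpb1b and 38.2% of Sirpb1c occurred unchanged in another of the 8 genes or in the SIRP-like loci Gm5150 and Gm9733. The share was 8.06% for Pilrb1, 6.11% for Pilrb2, 0.385% for Pilra and 0 for Sirpa and Cd47. Counts of the single Sirpb1 genes are therefore uncertain, and their sum is given beside them. Cd47 (chr16:49800533-49915010, plus strand) has no close relative among the members.

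Pilra, Pilrb1 and Pilrb2 also share sequence before their start sites, which the choice of the genes did not use. In the RefSeq windows of 250 bases upstream (GRCm38.p6), a run of 86 bases was the same in all of them, and of 32851 such windows it was found in those of these 3 genes and no other. By the RefSeq start sites it ended 17 bases before Pilra and 71 bases before Pilrb1 and Pilrb2. By the GENCODE gene starts given above, 14 bases lay between the run and each of the genes. The windows of Pilrb1 and Pilrb2 were 98.4% identical over 250 bases, whereas those of Sirpb1a and Sirpb1b were 43.7% identical. The run is shown in capitals within 150 bases, minus strand, from chr5:137836279-137836428 for Pilra, chr5:137858057-137858206 for Pilrb1 and chr5:137871766-137871915 for Pilrb2:
Pilra: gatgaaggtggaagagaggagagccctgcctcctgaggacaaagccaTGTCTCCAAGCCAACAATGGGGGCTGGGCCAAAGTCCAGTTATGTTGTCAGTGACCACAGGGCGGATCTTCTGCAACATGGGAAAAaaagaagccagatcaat
Pilrb1: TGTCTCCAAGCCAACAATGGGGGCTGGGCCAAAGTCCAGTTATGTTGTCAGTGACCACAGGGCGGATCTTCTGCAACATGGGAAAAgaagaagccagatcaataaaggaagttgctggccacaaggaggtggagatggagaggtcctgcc
Pilrb2: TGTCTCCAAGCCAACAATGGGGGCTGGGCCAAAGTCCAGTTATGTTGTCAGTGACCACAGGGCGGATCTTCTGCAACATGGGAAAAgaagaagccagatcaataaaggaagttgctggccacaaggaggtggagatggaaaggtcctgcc

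The table held 20266 cells in 23 clusters, from 621 to 3677 cells per library. Depth differed between datasets, with median totals per cell of 744 to 1270 UMIs in the Aachen libraries, 3210 to 3505 in Bonn and 2802 to 3067 in Hamburg. Libraries shared at most 16 cell barcodes with any other. Cluster names were the authors'. Levels are in CPM, the usual scaling of a gene's summed counts by the total of the same cells. The 8 resident macrophage markers summed to between 18360 and 26960 CPM in the resident macrophage libraries. They summed to 1993 to 4619 CPM in monocytes and 286.6 to 1878 CPM in cDC2, the type 2 conventional dendritic cells. Monocyte markers summed to 3305 to 4866 CPM in monocytes and 44.0 to 623 CPM in resident macrophages. Levels below are CPM of the summed counts of a cluster and compare 1 gene between cell types, not genes with each other. Clusters were drawn from the same cells' expression, so differences between clusters are described and not tested.

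Sirpa was shared by the myeloid clusters of these kidneys, with cDC1 as the exception. Its mean over datasets was 222.6 ± 115 CPM in Macrophage_1, 275.6 ± 143 CPM in Macrophage_2, 269 ± 148 CPM in Macrophage_3 and 258 ± 105 CPM in monocytes (SD, n = 3). Malat+_Macrophage held 310 ± 210 CPM and neutrophils 227 ± 79.3 CPM. These levels overlapped within their spread. The dendritic cells split, with 148 ± 75.7 CPM in cDC2 and 9.43 ± 6.28 CPM in cDC1. SIRP-alpha is a textbook marker of cDC2 against cDC1. T_cell_1 held 3.54 ± 2.69 CPM and B_cell_1 4.68 ± 1.08 CPM as the level in lymphocytes. In Macrophage_1, Macrophage_2 and Macrophage_3, Aachen had the lowest Sirpa, and its Macrophage_2 held 113 CPM against 332 CPM in Bonn and 382 CPM in Hamburg.

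Cd47, which encodes the ligand of SIRP-alpha, was found in every cluster. Among the 20 clusters with 20 or more cells in each dataset, NK_cell_1 was highest at 508 ± 170 CPM, followed by Isg+_Macrophage at 457 ± 123 CPM, cDC2 at 455 ± 26.1 CPM and monocytes at 435 ± 32.7 CPM. Neighbours in that order did not differ beyond their spread. Macrophage_1 held 244.5 ± 18.4 CPM and T_cell_1 303 ± 64.3 CPM. The plasmacytoid dendritic cells, with 99 cells and 9 of them in Aachen, held 778 ± 148 CPM.

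The activating SIRP genes were not distributed alike. Sirpb1a was highest in Macrophage_2 at 137 ± 54.0 CPM, cDC2 at 129.6 ± 65.2 CPM and monocytes at 124.5 ± 41.4 CPM, with overlapping datasets, and lowest among the macrophages in Macrophage_3 at 21.9 ± 7.1 CPM. Sirpb1b and Sirpb1c instead were highest in neutrophils and monocytes. Monocytes held 141 ± 28.1 CPM of Sirpb1b and 178 to 212 CPM (over datasets) of Sirpb1c, whereas Macrophage_1 held 12.3 ± 11.2 CPM and 5.2 ± 2.0 CPM. Neutrophils held 164 CPM of Sirpb1b in Bonn, 208 CPM in Hamburg and 639 CPM in Aachen, where 25 neutrophils were found. The shared sequence of the Sirpb1 genes bears on each of these values.

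The PILR genes were highest in the same clusters. Pilra was highest in neutrophils at 321 ± 29.2 CPM, then monocytes at 135.8 CPM (125.8 to 149 over datasets) and Macrophage_2 at 131 ± 31.7 CPM, the last pair overlapping. Isg+_Macrophage, Malat+_Macrophage and Macrophage_1 lay between 47.6 and 58.5 CPM on average and did not differ beyond their spread. Macrophage_3 held 13.5 ± 9.9 CPM and cDC2 11.9 ± 8.1 CPM. Pilrb1 (112 ± 87.7 CPM) and Pilrb2 (270.4 ± 258 CPM) were on average also highest in neutrophils, and then in monocytes and Macrophage_2. The Aachen value of neutrophils, from 25 cells, was far above the others. Pilrb1 was at 52.8 CPM in neutrophils and 83.8 CPM in monocytes of Bonn, and at 71.0 and 60.0 CPM in Hamburg. Without Aachen, monocytes ranked above neutrophils for Pilrb1. Thus cDC2 held Sirpb1a at a level overlapping that of Macrophage_2, but Pilra at a level below that of every dataset of Macrophage_2. Sirpa in cDC2 was at 61.05, 191 and 193 CPM in Aachen, Bonn and Hamburg. Each value was below those of the macrophage clusters of the same dataset, narrowly in Aachen and Bonn, where Isg+_Macrophage held 62.5 and 197 CPM. This order depended on the measure. Averaged over single cells with datasets pooled, cDC2 ranked 6 for Sirpa, ahead of Macrophage_1 (7) and Isg+_Macrophage (8). The other macrophage clusters still ranked ahead of cDC2.

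**Figure D1:**
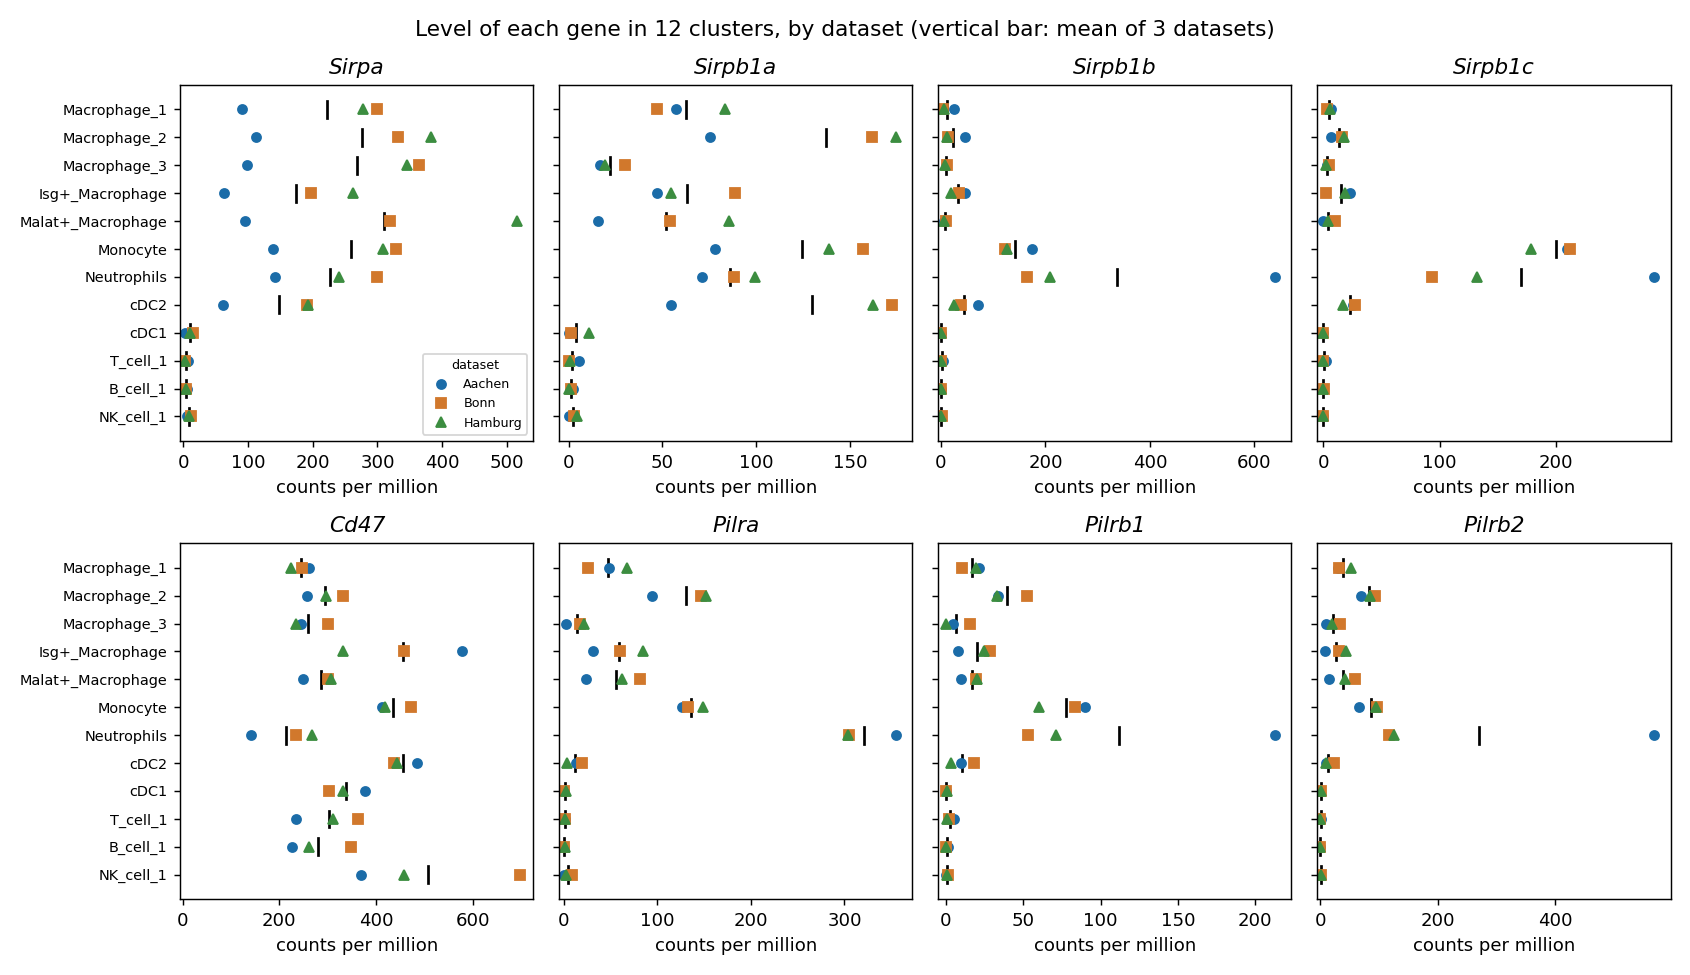
Level of each gene in CPM (horizontal axis) in 12 of the 23 clusters, with 1 point per dataset and a vertical bar at the mean of 3 datasets. Sirpa spans the macrophages, monocytes, neutrophils and cDC2, Cd47 spans all clusters, and the PILR genes are highest in neutrophils, monocytes and Macrophage_2.

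Detection per cell was low. After each cell was thinned to 500 UMIs, which left out 814 shallower cells, a UMI of Pilra was found in 6.8% of Macrophage_2 cells and 6.7% of monocytes on average over datasets, and in 1.0% of Macrophage_3 cells. Without thinning the shares were 31.7%, 37.5% and 3.9%. T_cell_1 cells, which should lack the gene, gave 0.2% unthinned. For Sirpa, 14.2% of thinned Macrophage_2 cells and 0.2% of T_cell_1 cells had a UMI.

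The genes with the most similar pattern were sought over 65 sums of 1 cluster in 1 dataset, on log2(CPM + 1) centred within each dataset, among 10756 genes. These sums share cells and depth within a dataset, and the correlations are descriptive. Sirpa was most like Cd68, a lysosomal glycoprotein of phagocytes (r = 0.92), Klra2 (r = 0.90) and Nfam1 (r = 0.90). Pilra was most like Lst1 (r = 0.88), Klra2 (r = 0.87) and Cd300a, itself an inhibitory receptor (r = 0.86). Members appeared in each other's lists. The pairs were Sirpb1b with Sirpb1c (r = 0.91) and with Pilrb2 (r = 0.86), Sirpb1a with Sirpa (r = 0.88) and with Pilrb2 (r = 0.88), and Pilrb1 with Pilrb2 (r = 0.86). Sirpb1b and Sirpb1c share sequence, as given above, and its part in their correlation was not tested. Genes outside the members ranked as near. Pilrb2 was most like Cd300ld (r = 0.91), and the next after a member was Clec4n for Sirpb1b (r = 0.86) and Ifitm6 for Sirpb1c (r = 0.87). Cd47 had no close match, with Tmed5 nearest (r = 0.66).

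Within the resident macrophages (Macrophage_1, Macrophage_2, Macrophage_3 and Isg+_Macrophage, 5367 cells), the PILR genes and Sirpb1a were lower in the medulla than in the cortex, while Sirpa and Cd47 were at similar levels. This is the comparison from which the genes were chosen. In summed RNA of a class, fewer cells with a transcript and less transcript per cell cannot be told apart. Over all genes tested in it, 1.24% passed an adjusted p of 0.05 by edgeR's quasi-likelihood test, and the median log2 fold change of all genes was 0.0058, against -0.88 over the 8 members, all of which had enough counts.

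Pilra in cortex, OM and IM was at 120.1, 7.8 and 82.6 CPM in Aachen, 147, 52.7 and 24.04 CPM in Bonn, and 133, 61.2 and 70.0 CPM in Hamburg. The cortex was the highest compartment in each dataset. No medullary library reached a cortical one, and the share of all genes with such a gap was not counted, here or below. The log2 fold change of the medulla, taken as the average of its OM and IM values, against the cortex was -1.69 ± 0.35 (SE), a 3.22-fold lower level, and by dataset -2.16, -1.97 and -1.06.

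Its activating relatives followed it. Pilrb1 was at 44.9, 6.1 and 29.5 CPM in Aachen, 51.9, 28.5 and 12.6 CPM in Bonn, and 40.2, 13.2 and 14.0 CPM in Hamburg. Pilrb2 was at 81.8, 12.8 and 47.2 CPM in Aachen, 95.6, 60.4 and 27.2 CPM in Bonn, and 86.2, 41.0 and 46.1 CPM in Hamburg. Cortical and medullary libraries did not overlap for either gene, and the log2 fold changes were -1.595 ± 0.30 and -1.32 ± 0.26 (SE). The ratio of Pilra to the sum of both Pilrb genes averaged 1.0 in the cortex, from 0.95 to 1.06, and ranged from 0.41 to 1.16 in the medulla. Such a ratio compares compartments only, and a value of 1.0 does not mean equal amounts of transcript.

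Sirpb1a, an activating receptor, was at 87.1, 25.6 and 81.1 CPM in cortex, OM and IM of Aachen, 153, 65.9 and 50.2 CPM in Bonn, and 141, 82.5 and 65.1 CPM in Hamburg. The cortical libraries were above the medullary ones, although the Aachen IM library lay close to its cortex. The log2 fold change was -1.13 ± 0.21 (SE). For the sum of Sirpb1a, Sirpb1b and Sirpb1c the groups overlapped, with 139.9 to 182 CPM in cortex and 41.8 to 146 CPM in the medulla. Sirpb1b (-0.64 ± 0.38) and Sirpb1c (-0.20 ± 0.48) had lower counts, and neither kept its sign in all datasets.

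Sirpa, the inhibitory receptor, was at 95.0, 97.0 and 104.7 CPM in cortex, OM and IM of Aachen, 314, 396 and 313 CPM in Bonn, and 301, 305.5 and 324 CPM in Hamburg. The OM was the highest compartment in Bonn and lay between the others in Aachen and Hamburg, and the log2 fold change was 0.11 ± 0.12 (SE). Cd47 ranged from 261 to 349 CPM in the cortical and from 245.5 to 357 CPM in the medullary libraries, with a log2 fold change of -0.09 ± 0.12 (SE). The ratio of Sirpa to the sum of the Sirpb1 genes, again for comparing compartments only, was 0.68 to 1.94 in the cortex and 0.72 to 5.23 in the medulla.

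**Figure D2:**
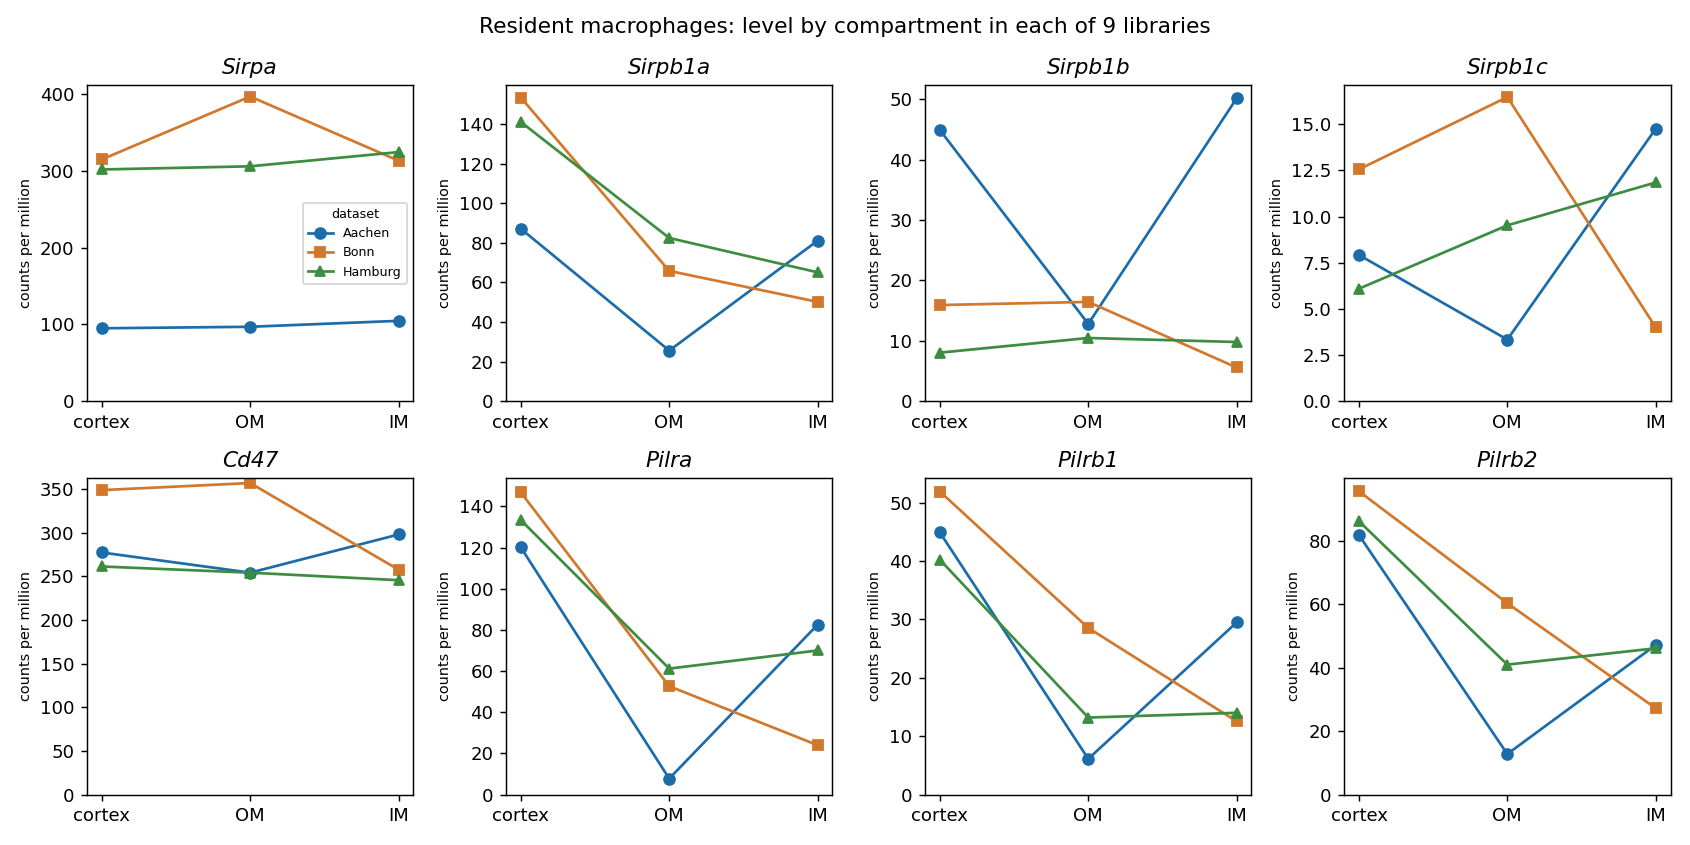
Level of each gene in CPM (vertical axis) in resident macrophages of cortex, OM and IM, with 1 line per dataset. Pilra, Pilrb1, Pilrb2 and Sirpb1a are highest in the cortex of every dataset, whereas Sirpa and Cd47 share no order of compartments across datasets.

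The make-up of the class moved with the compartment. Macrophage_3, the cluster with the lowest Pilra and Sirpb1a, made up 0% of the cortical class in Aachen and Hamburg and 7.0% in Bonn, against 44.7%, 42.9% and 23.0% in the OM and 1.2%, 43.2% and 15.4% in the IM of Aachen, Bonn and Hamburg. Macrophage_2, the cluster of the class with the highest Pilra and Sirpb1a, made up 35.5%, 83.3% and 32.8% of the cortical class of the datasets in the same order, against 18.6%, 32.1% and 18.6% in the OM and 60.6%, 10.4% and 16.6% in the IM. Without the cells of Macrophage_3 the log2 fold changes were -1.37 ± 0.29 for Pilra, -1.42 ± 0.27 for Pilrb1, -1.18 ± 0.24 for Pilrb2 and -0.83 ± 0.20 for Sirpb1a (SE). Within Macrophage_1 alone, Pilra was at 104, 5.0 and 54.6 CPM in cortex, OM and IM of Aachen, 99.4, 45.1 and 21.2 CPM in Bonn, and 110.3, 42.5 and 64.7 CPM in Hamburg. Its log2 fold change there was -1.66 ± 0.30, and that of Sirpb1a -1.25 ± 0.23. Within Macrophage_2, Pilra differed less, at -0.62 ± 0.20, and Sirpb1a was at -0.06 ± 0.17. The difference between these clusters was not tested. The Bonn cortex held 24 Macrophage_1 cells. Macrophage_3 could not be fitted, since 1 dataset held enough of its cells in the cortex.

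**Figure D3:**
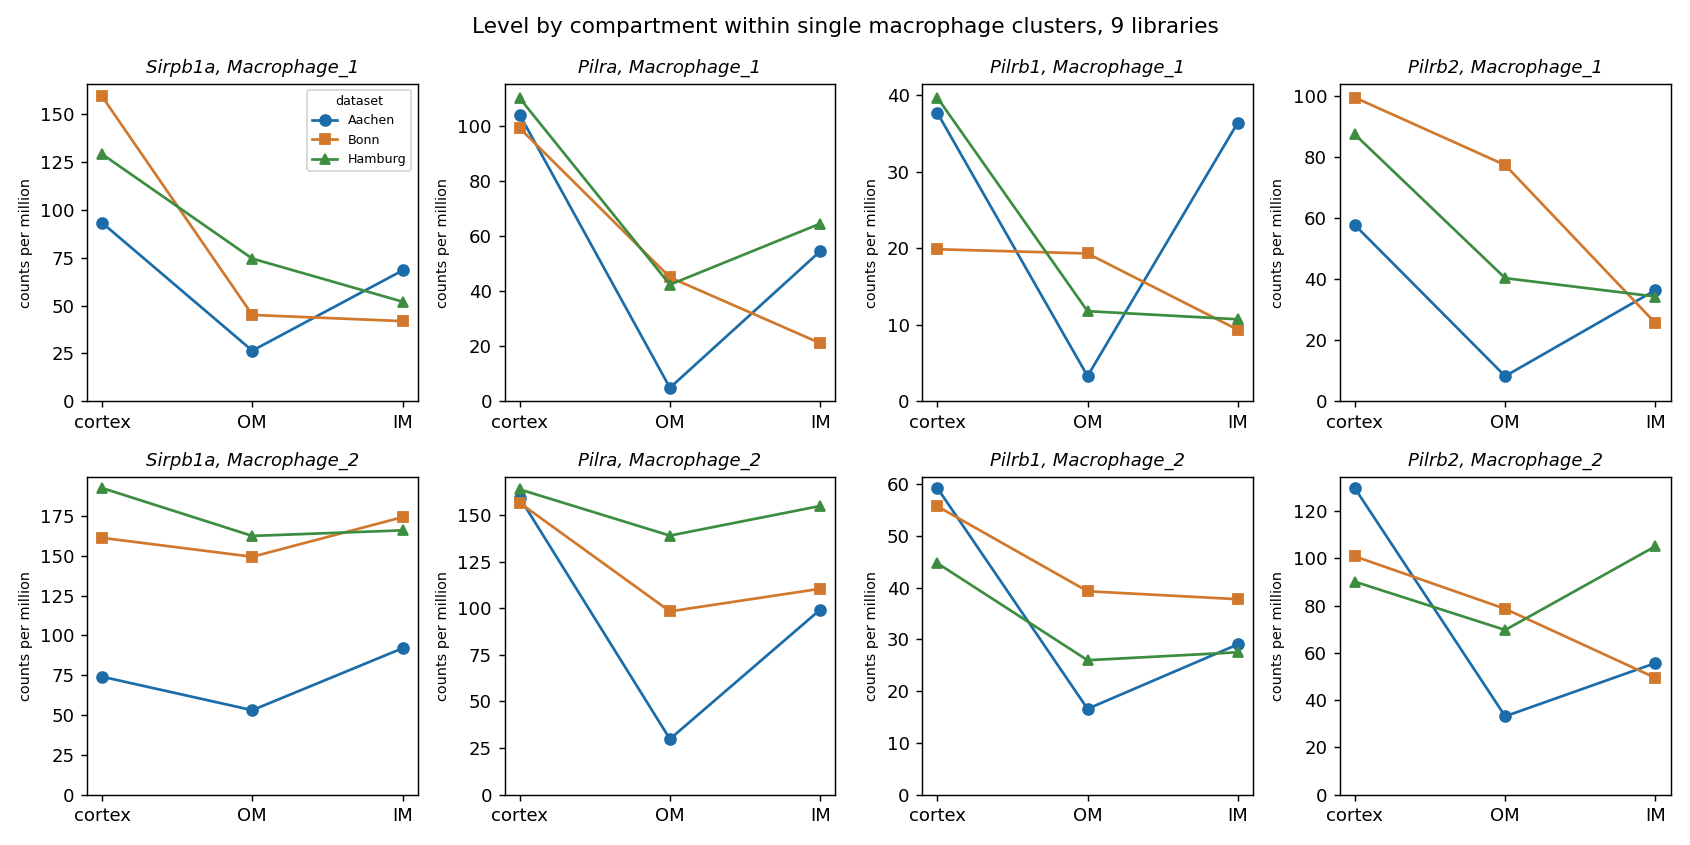
Level in CPM (vertical axis) of Sirpb1a, Pilra, Pilrb1 and Pilrb2 in Macrophage_1 (top) and Macrophage_2 (bottom) of cortex, OM and IM, with 1 line per dataset. In Macrophage_1, Pilra and Sirpb1a are highest in the cortex of every dataset, and in Macrophage_2 the fitted difference of Sirpb1a is -0.06.

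Markers of other cells also moved with the compartment. The 6 tubule epithelium markers summed to 24.5 to 31.7 CPM in the cortical and 63.4 to 779 CPM in the medullary resident macrophages. The 6 monocyte markers summed to 158 to 623 CPM in cortex, 44.0 to 252 CPM in OM and 141 to 285 CPM in IM. Over the class, Ccr2 was at 181 CPM, Ly6c2 at 36.2 CPM and Plac8 at 35.3 CPM, with Chil3, Ace and Treml4 each under 6 CPM. The 4 cDC2 markers summed to 408 to 665 CPM in cortex, 776 to 1105 CPM in OM and 423 to 1188 CPM in IM. Most of that sum was Mgl2, at 768 CPM over the class. Cd209a was at 38.3 CPM, Clec10a at 22.0 CPM and Cd7 at 6.8 CPM. The 6 B cell markers summed to 104 to 944 CPM in cortex and 105 to 509 CPM in the medulla. The part of these markers in the result was not tested. Leaving out the 1213 resident macrophages that held at least 2 UMIs of lymphocyte markers gave -1.85 ± 0.30 for Pilra and -1.16 ± 0.22 for Sirpb1a. The Aachen OM library was the lowest of the 9 for Pilra, and without it the log2 fold change of Pilra was -1.39 ± 0.24 (SE).

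The contrast of OM with IM in resident macrophages was not used to choose the genes. None of the 8 members passed by edgeR (0 of 8, with 0 at an unadjusted p under 0.05, and 0 by DESeq2), beside 0% of 8687 genes tested, of which 267 had an unadjusted p under 0.05 and 0 passed by DESeq2. Datasets disagreed in direction. Pilra was lower in OM than IM by 3.16 in Aachen on the log2 scale (difference -3.16), higher by 0.95 in Bonn and at -0.20 in Hamburg, and the fit gave -0.45 ± 0.48 (SE; edgeR adjusted p = 0.9996). Without the Aachen dataset the fitted value was 0.41.

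The other cell classes allowed a test of medulla against cortex. Over 6 classes, 21 member tests had enough counts, and edgeR called 0 of them, with 2 at an unadjusted p under 0.05, Pilra and Sirpb1a in Malat+_Macrophage. DESeq2 also called 0. The background shares of genes called by edgeR were 0.332% in monocytes, 0.304% in cDC2, 0.0634% in cDC1, 0.0587% in Malat+_Macrophage, 0.0335% in T cells and 0.0898% in B cells, so few genes of any kind passed.

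Monocytes (714 cells) had enough counts of all 8 members, and none was called. Pilra was at 126, 139 and 116 CPM in cortex, OM and IM of Aachen, 127, 118 and 149 CPM in Bonn, and 149.8, 144 and 158 CPM in Hamburg. The compartments overlapped, and the log2 fold change was 0.04 ± 0.20 (SE; edgeR adjusted p = 0.9992). That of Sirpb1a was -0.09 ± 0.20 and that of Sirpa 0.12 ± 0.18. The Aachen libraries, of 28 to 32 monocytes, stood apart, with 220, 116 and 66.4 CPM of Sirpa in cortex, OM and IM. In cDC2 (668 cells), Sirpa, Sirpb1a, Sirpb1b and Cd47 had enough counts to be tested, with log2 fold changes from -0.07 to 0.15. In cDC1, T cells and B cells, Cd47 was tested in each, at 0.22 ± 0.18, 0.04 ± 0.11 and -0.03 ± 0.11 (SE), and Sirpa in T cells at 0.63 ± 0.58. The remaining members were too low there: Pilra did not exceed 6.9 CPM in any T or B cell library.

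Malat+_Macrophage, a macrophage cluster outside the resident class, showed low medullary values that did not pass the test. Pilra was at 115, 5.6 and 45.0 CPM in cortex, OM and IM of Aachen, 128, 75.9 and 13.9 CPM in Bonn, and 113, 40.1 and 50.8 CPM in Hamburg. No medullary library reached a cortical one, and the log2 fold change, from 76 counts, was -1.74 ± 0.46 (SE, edgeR adjusted p = 0.60). Pilra was lower in each of the 3 datasets, and the share of all genes that were so was not counted. Sirpb1a was at -1.17 ± 0.48 (SE; edgeR adjusted p = 0.83), also lower in each. Pilrb2 was at -0.38 ± 0.70 (SE), lower in Bonn and higher in Aachen and Hamburg, and Pilrb1 had too few counts to be tested. The smallest library of the cluster held 20 cells. Its resident macrophage markers summed to 12310 to 18800 CPM, but the 6 B cell markers reached 11210 CPM in the Bonn IM and 2341 CPM in the Bonn cortex, against at most 531.6 CPM in the other libraries. Their part in the result was not tested, since without the cells holding lymphocyte markers Pilra and Sirpb1a had too few counts. Over the alternatives in which it had enough counts, the adjusted p of Pilra ranged from 0.064 to 0.9998.

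**Figure D4:**
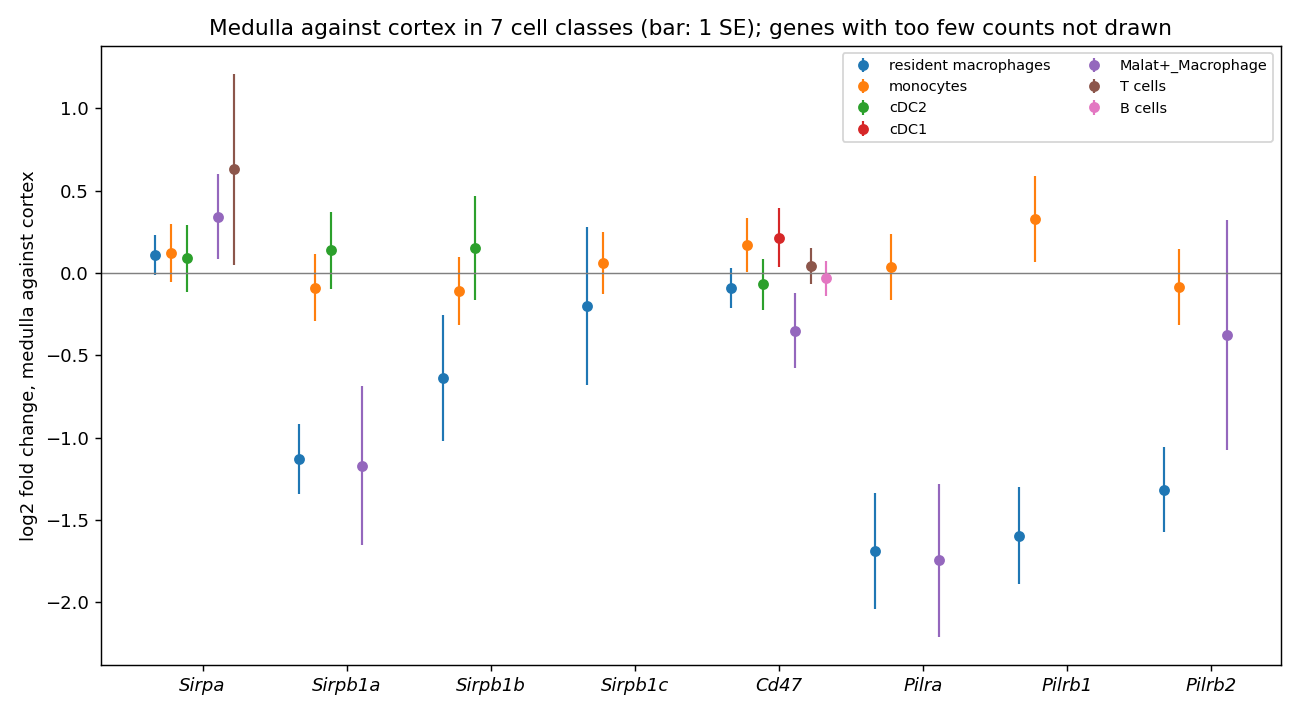
Log2 fold change of medulla against cortex (vertical axis) for each gene in 7 cell classes, with bars of 1 SE from edgeR. Values for Pilra lie near -1.7 in resident macrophages and Malat+_Macrophage and near 0 in monocytes, and Cd47 lies within 0.36 of 0 in every class.

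The genes that work with these receptors were read from lists that were also chosen with earlier results known. Of 7 adapters and kinases tested in resident macrophages, medulla against cortex, 1 passed as lower and 0 as higher, where 1.24% of all genes passed. The comparison is the one from which the members were chosen, so the counts describe it and are no independent test. The gene was Fgr, a kinase of the Src family, at -1.13 ± 0.24 (SE), and Src had too few counts. Tyrobp, which encodes DAP12, was at 0.10 ± 0.12 (SE). Of the 7 phosphatases and tail partners, 0 passed in either direction by edgeR, and Ptpn6, which encodes SHP-1, was at -0.21 ± 0.12 (SE).

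Among 23 other paired myeloid receptors, 18 had enough counts, of which 3 passed as lower and 1 as higher in the medulla of the same comparison, again beside 1.24% of all genes, with a median log2 fold change of -0.23. Those lower were Clec4n, which encodes the fungal receptor dectin-2 (-1.75 ± 0.36), the inhibitory receptor Cd300a (-0.90 ± 0.20) and Clec4a2 (-0.72 ± 0.17). Trem2, a lipid receptor that signals through DAP12, was higher (1.498 ± 0.20). Clec4a2 and Trem2 are also among the markers by which the study told macrophage origins apart, as is Sirpb1a, so they are not independent evidence of direction. Of 9 ligands, 3 were tested and 0 passed in resident macrophages. Sftpd had 0 counts in the class and Cd99 has no column. In monocytes Thbs1, a ligand of CD47, was higher in the medulla (1.32 ± 0.25, edgeR adjusted p = 0.00022), where 0.332% of all genes passed. The loci Gm5150 and Gm9733 had too few counts in resident macrophages, and in monocytes were at 0.14 ± 0.27 and 0.13 ± 0.18 (SE), not called by edgeR.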

How the data were processed

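The authors mapped the reads with Cell Ranger to mm10 and filtered, integrated and clustered the cells in Seurat, per the labels and the study's methods. The version of Cell Ranger is not given in the sources used here. The deposited values are expected counts of UMIs per gene and cell, without scaling. They are whole in Aachen and Bonn, whereas 0.118% of the Hamburg values are exactly whole, for a reason not given in the sources used here. Strand and multi-mapping settings were not given in the sources used here.

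Counts were summed per cell class and library (1 compartment of 1 dataset, 10 or more cells) and rounded. Tests used edgeR 4.0.16 (R 4.3.3) with filterByExpr, TMM, glmQLFit and glmQLFTest, the dataset as block, Benjamini-Hochberg adjustment over all genes tested and a threshold of 0.05. The SE is the absolute log2 fold change divided by the square root of F. For the differences within a dataset, 2 prior counts were added before the log2 of the CPM. DESeq2 1.42.0 was an alternative. Levels are unscaled CPM. Libraries of 1 dataset deviated together from the compartment means (r from 0.83 to 0.92 over 9 pairs, against -0.80 to 0.48 over 18 pairs of different datasets). The fits were run on simulated data drawn from a common mean profile without differences between datasets. That simulation therefore does not show how the dataset block performs. Doublets were not called here; leaving out cells with at least 2 UMIs of lymphocyte markers was an alternative. The cDC1 of the Bonn OM (7 cells) were dropped. Members and gene lists were chosen with earlier results of these data known. Named genes are the 8 members and the 3 genes most alike to each member. List genes are named where they passed the threshold (up to 6 per list) or were at 0. Tyrobp, Ptpn6, Src, Gm5150, Gm9733 and single cell type markers were named in addition after their values were seen. Reference sequences came from GENCODE vM21 and RefSeq (7 of the 8 members have an upstream window).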

Additional observations from a re-analysis of the deposited data

Results flagged for a closer look

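Cd47 stood out because its differences had opposite signs in all datasets of different cell classes. The medulla lay above the cortex in all 3 datasets in monocytes (log2 fold change 0.17) and below it in all 3 in resident macrophages (-0.091) and Malat+_Macrophage (-0.35). Their SE were 0.16, 0.12 and 0.23, and the difference between the classes was not tested. Several of these signs rest on very small differences. In Aachen they were -0.0013 in resident macrophages and -0.0067 in Malat+_Macrophage. In monocytes they were 0.73 in Aachen, from 28 to 32 cells per library, 0.051 in Bonn and 0.039 in Hamburg. With 30 or more cells per library the fitted monocyte value was -0.024.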

How the results depend on the processing

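The count of members called outside the resident macrophages and between OM and IM stayed at 0 under every alternative that could be fitted, among them no replicate block (0), DESeq2 and each dataset left out (0 to 0). With 30 or more cells per library cDC1 could not be fitted. In the resident macrophages, medulla against cortex, leaving out a dataset or a library gave -2.01 to -1.26 for Pilra, -1.90 to -1.22 for Pilrb1, -1.57 to -1.01 for Pilrb2 and -1.32 to -0.83 for Sirpb1a, the last range including the fit without Macrophage_3. Thinning to 500 UMIs gave -0.75 for Sirpb1a, and dropping the replicate block gave -1.45 for Pilrb1. The alternatives without a library and without Macrophage_3 were chosen after seeing the data. Uncalled values near 0 changed sign, and the cause was not tested. In resident macrophages these were Cd47 without cells with lymphocyte markers (0.0069) and Sirpb1c without the Bonn IM library (range -0.57 to 0.59). In monocytes, without the replicate block, they were Sirpa (-0.037), Sirpb1c (-0.11) and Pilrb1 (-0.068), without cells with lymphocyte markers Sirpb1c (-0.038), Pilra (-0.16) and Pilrb2 (0.017), and with 30 cells Cd47 (-0.024). With a dataset left out, the monocyte ranges were -0.049 to 0.25 for Sirpa, -0.016 to 0.17 for Sirpb1c, -0.012 to 0.12 for Pilra, -0.18 to 0.57 for Pilrb1 and -0.21 to 0.073 for Pilrb2. In cDC2 they were -0.20 to 0.27 for Sirpa, -0.088 to 0.28 for Sirpb1a and -0.15 to 0.093 for Cd47, and Sirpb1a was at -0.048 without cells with lymphocyte markers. Cd47 in T cells was at -0.0018 with no filter, -0.0028 thinned and -0.10 to 0.15 with a dataset left out, and in B cells -0.13 to 0.093. For OM against IM, Sirpb1c was at -0.12 by DESeq2, -0.26 without the replicate block and -0.28 without cells with lymphocyte markers, and Cd47 at -0.015 thinned. With a dataset left out the ranges were -0.54 to 0.32 for Sirpb1a, -1.20 to 0.91 for Sirpb1b, -1.02 to 0.95 for Sirpb1c, -1.24 to 0.41 for Pilra, -1.07 to 0.60 for Pilrb1, -0.80 to 0.48 for Pilrb2, -0.076 to 0.13 for Sirpa and -0.061 to 0.19 for Cd47. Shares of cells with a UMI depended on depth. The 5 highest clusters of each gene shared at least 4 members under each other ranking.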
